A study of Rattus norvegicus with 6 samples.

Results

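Microglia and the macrophages at the borders of the brain are related tissue-resident cells, and a small group of surface and secreted proteins is widely used to recognise microglia. Gpr34 and Gpr84 are G protein-coupled receptors that signal through Gi proteins, the first for lysophosphatidylserine, a lipid exposed by damaged or activated cells, and the second for medium-chain fatty acids. Tmem119 is a membrane protein used as a microglia marker, Olfml3 is a secreted olfactomedin-domain protein, and Selplg is the leukocyte ligand of P-selectin. Aif1, better known as Iba1, bundles actin in membrane ruffles, and Adgre1 is the adhesion receptor recognised by the F4/80 antibody. None of these transcripts is exclusive to microglia, since macrophages and monocytes can carry several of them.

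These 7 genes (Tmem119, Gpr34, Gpr84, Olfml3, Selplg, Aif1 and Adgre1) were looked up by symbol among the 14217 genes that have at least 1 probe set naming them alone on the array. The annotation used here named 6 of the 7, and no probe set named Selplg. Only Aif1 had more than 1 such probe set, and its brighter probe set on average was taken as its main value.

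The cells were CD11b+CD163+ cells, labelled as perivascular and meningeal macrophages, which were sorted by flow cytometry from the right hemisphere of adult male Sprague-Dawley rats. The control group held rats 63, 68 and 69, which had no ischemia. The ischemia group held rats 64, 65 and 66, whose right middle cerebral artery was occluded for 1 h and whose cells were taken at 16 h. Each sample was a different rat, so n = 3 per group, and the comparison asked how the transcripts of the sorted cells differed after ischemia. CD163 was the gate in both groups, so the CD163- microglia of the same brains were outside it. Any other cell that carries CD11b and CD163 could enter the gate. The study checked purity in separate sorts, where most cells were CD11b+CD163+ and those from ischemic brain held a small share of granulocytes.

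Values are log2 signals from 1 array per rat, normalized together, so a difference of 1 is a 2-fold difference in signal, and every rise or fall given below is a difference of log2 means, ischemia minus control. Array medians lay between 7.82 and 7.90. The array of control rat 63 stood apart at the top of the scale, where its highest value was 13.85, against 14.88 to 14.96 on the other 5 arrays. The 3′ minus 5′ difference of the actin control probes was 0.058 to 0.073 in control rats and 0.17 to 0.24 in ischemic rats. Genes of unrelated tissues such as liver and muscle gave the level of background, and over 32 such genes the median was 6.37 and the 90th percentile was 7.29. Where the mean of 1 group was at or below 7.29, the difference is given only as a lower bound, against the higher of 7.29 and the measured value on each array of that group. Cd163, the gated antigen, read 12.63, 13.86 and 13.41 in control rats 63, 68 and 69, and 14.11, 14.02 and 13.38 in ischemic rats 64, 65 and 66. Those groups overlapped, and the log2 fold change was 0.54 with an adjusted p of 0.211 by limma.

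After ischemia, 1 of the 5 microglia-associated genes that could be tested rose, and limma called 0 as fallen at an adjusted p under 0.01, with 2 lower at an unadjusted p under 0.05 (Gpr34 and Adgre1). Gpr84 rose to 4.93 times its control signal, while the signal of Gpr34 was 3.28 times higher in control than in ischemic rats, a difference that just missed the threshold. Tmem119, Aif1 and Adgre1 did not pass the test either, with log2 fold changes between −0.50 and 0.61. Olfml3 was within background on every array. Over all 9928 genes tested, 16.8% rose and 5.99% fell, so 1 rise among 5 genes is close to the share over all genes. The control and ischemia values did not overlap for 3 of the 5 genes (Gpr84, Gpr34 and Tmem119), against 55.6% of all genes tested. In cells sorted in bulk, fewer cells of a type and less RNA per cell cannot be told apart.

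**Figure D1:**
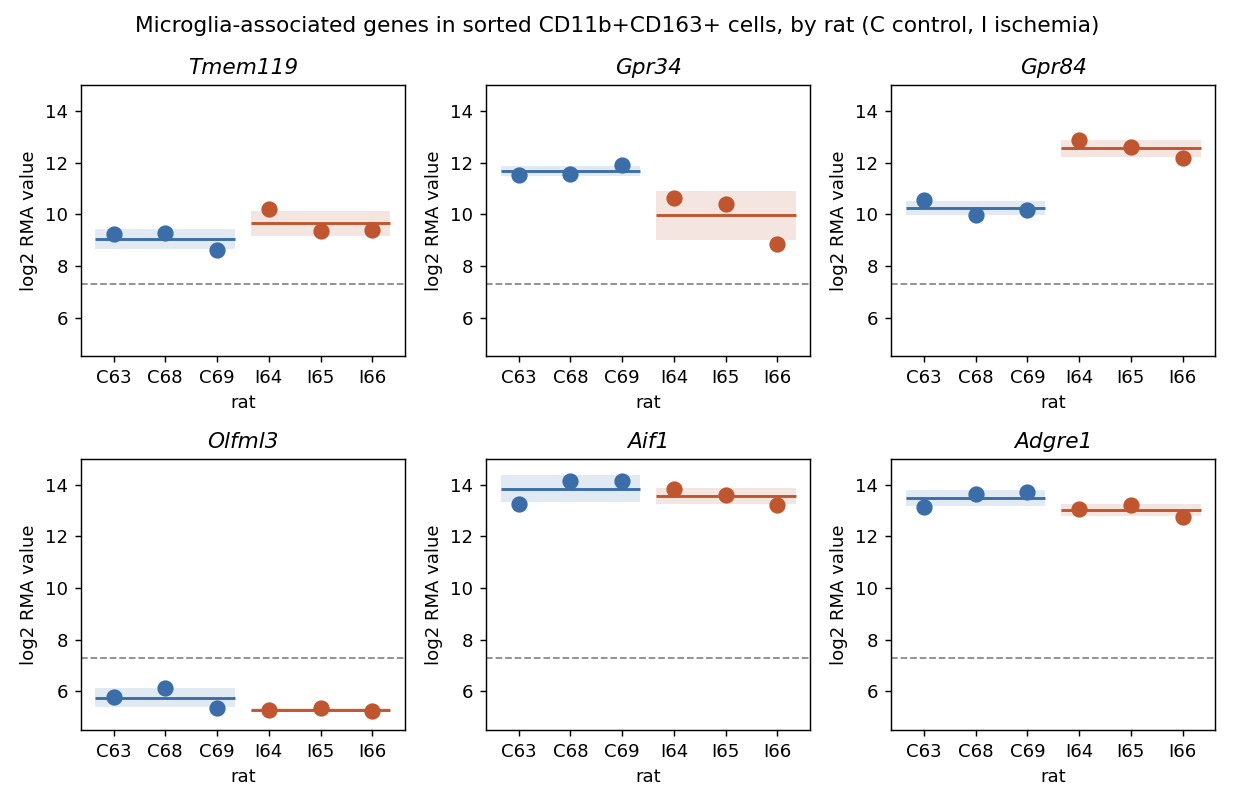
Log2 RMA value (y axis) of the 6 measured genes in each rat (x axis; C63, C68 and C69 control, I64, I65 and I66 ischemia). Each point is 1 array, lines are group means, shaded bands are 1 SD and the dashed line is the 90th percentile of background genes, 7.29; Gpr84 is higher in every ischemic rat, Gpr34 is lower in every ischemic rat with rat 66 lowest, and Olfml3 lies below the dashed line throughout.

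Gpr84 is known as a receptor that macrophages and microglia raise when they are activated. Its values were 10.56, 9.99 and 10.18 in control rats 63, 68 and 69, and 12.86, 12.59 and 12.19 in ischemic rats 64, 65 and 66. The lowest ischemic rat was above the highest control rat, and rats within a group differed by far less than the groups did. The means were 10.24 ± 0.29 and 12.54 ± 0.34 (SD, n = 3 each), which gave a log2 fold change of 2.30 (SE 0.21, 95% confidence interval 1.81 to 2.79) and an adjusted p of 0.000400 by limma. Gpr84 also passed the study's additional limit of a log2 fold change beyond 2, which 1.63% of all genes tested passed as rises. Its difference stood at percentile 98.8 of the log2 fold changes of all genes tested.

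Among other lipid-mediator receptors of the same broad kind, those for fatty acids, lactate, leukotriene B4 and platelet-activating factor, 3 of 9 listed genes could be tested. Of these, 1 rose, 2 were higher and 0 lower at an unadjusted p under 0.05, and the median log2 fold change was 0.49, against 0.10 over all genes tested. Ltb4r, the high-affinity receptor of leukotriene B4, rose by 1.09 (adjusted p = 0.00195, limma), from 7.77, 7.79 and 8.02 in control rats 63, 68 and 69 to 8.69, 8.93 and 9.21 in ischemic rats 64, 65 and 66. Ptafr, the receptor of platelet-activating factor, had a log2 fold change of 0.49 and did not pass the test (adjusted p = 0.0154, limma). Ltb4r thus moved in the same direction as Gpr84, by a smaller step. Its call held with any 1 rat left out.

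Gpr34 was high in control rats, at 11.53, 11.57 and 11.90 in rats 63, 68 and 69, and lower in ischemic rats, at 10.62, 10.38 and 8.86 in rats 64, 65 and 66. Every ischemic rat was below every control rat, but the ischemic rats were far from each other and rat 66 was the lowest by a wide margin. The SD was 0.20 among control rats and 0.95 among ischemic rats, and the spread within groups was larger than that of 97.9% of the genes tested. The log2 fold change was −1.71 (SE 0.41, 95% confidence interval −2.66 to −0.77), with an unadjusted p of 0.00303 and an adjusted p of 0.0122 by limma, so Gpr34 missed the threshold of 0.01. Without ischemic rat 66 the log2 fold change shrank to −1.17 yet the adjusted p became 0.00480, and without ischemic rat 64 the values were −2.05 and 0.00531. Leaving out any of the other 4 rats gave adjusted p-values of 0.0197 to 0.0414.

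Lysophosphatidylserine is made from phosphatidylserine and is read by Gpr34 and by a small set of related receptors. Of 10 listed receptors and enzymes of this lipid, 8 could be tested, of which 1 rose, 1 fell and 6 did not pass, with a median log2 fold change of −0.03. P2ry10, another lysophosphatidylserine receptor, fell by 2.21 (adjusted p = 0.00382, limma). It read 10.35, 9.18 and 9.19 in control rats 63, 68 and 69, and 8.02, 7.36 and 6.72 in ischemic rats 64, 65 and 66. As with Gpr34, ischemic rat 66 was the lowest. The call of P2ry10 was lost without rat 63, 68, 65 or 66, where the adjusted p reached 0.0142. Ptdss1, which synthesises phosphatidylserine, rose by 1.03 (adjusted p = 0.00121, limma), and all 3 ischemic rats, at 11.53, 11.84 and 11.73, were above the control rats, at 10.77, 10.69 and 10.55. Abhd16a, the lipase that forms lysophosphatidylserine, had a log2 fold change of −0.02 (95% confidence interval −0.34 to 0.31).

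Gi proteins, the regulators that shorten their signal and the arrestins that stop it are shared by Gpr34 and Gpr84. Of 18 listed genes, 16 could be tested, and limma called 0 risen, 2 fallen and 14 not past the test. At an unadjusted p under 0.05, 1 was higher and 6 were lower, and the median log2 fold change was −0.14. Rgs18, a regulator that speeds the switching-off of Gi proteins, fell by 1.35 (adjusted p = 0.00217, limma), from 12.52, 13.01 and 13.05 in control rats to 11.74, 11.64 and 11.14 in ischemic rats. Arrb1, a beta-arrestin, fell by 0.98 (adjusted p = 0.00538, limma), with control rats at 10.71, 11.42 and 11.06 and ischemic rats at 10.16, 9.92 and 10.16. The groups did not overlap for 5 of the 16 tested genes, these 2 included, against 55.6% of all genes tested. The call of Rgs18 was lost without control rat 68 (adjusted p = 0.0113), and that of Arrb1 without rat 68, 69, 65 or 66 (adjusted p up to 0.0253). Rgs2, another G protein regulator on the list, had a log2 fold change of −0.58 (adjusted p = 0.155, limma) and overlapping groups.

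The difference between the 2 receptors was also taken within each rat. Gpr84 minus Gpr34 was −0.97, −1.59 and −1.72 in control rats 63, 68 and 69, and 2.24, 2.21 and 3.32 in ischemic rats 64, 65 and 66. This difference was 4.02 higher in ischemic rats, with the sign turned in every rat of the group. Gpr84 was higher and Gpr34 lower in every ischemic rat, so the groups had to separate here and the pair adds no further evidence. The two-sided exact permutation test gave p = 0.1 (0.1 after adjustment over 2 such pairs), the smallest value that 3 against 3 rats allow, so no pair could reach a threshold of 0.05. The sign of the within-rat value depends on how brightly each probe set reads and is not a ratio of transcript amounts.

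The DNA before the start of these 2 genes is shown because they had the largest differences, in opposite directions. The 250 bases upstream of each annotated start are given 5′ to 3′ along the gene's own strand, from RefSeq, build GRCr8. Capitals mark matches on either strand to 2 short motifs, GAGGAA and TGANTCA (AP-1). GAGGAA is a longer form of the ETS-family core and is bound by the macrophage factor PU.1. No match overlapped another here.
Gpr84 (chr7:136324574-136324823, minus strand): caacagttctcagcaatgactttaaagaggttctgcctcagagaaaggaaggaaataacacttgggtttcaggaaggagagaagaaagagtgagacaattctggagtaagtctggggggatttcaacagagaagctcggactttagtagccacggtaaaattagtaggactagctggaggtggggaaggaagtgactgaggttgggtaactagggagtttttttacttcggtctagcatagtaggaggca
Gpr34 (chrX:11785837-11786086, minus strand): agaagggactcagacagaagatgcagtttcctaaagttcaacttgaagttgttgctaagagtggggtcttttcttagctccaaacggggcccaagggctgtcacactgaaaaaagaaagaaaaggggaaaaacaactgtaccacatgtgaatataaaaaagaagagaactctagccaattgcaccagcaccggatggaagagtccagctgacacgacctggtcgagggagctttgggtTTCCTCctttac
Gpr34 held 1 GAGGAA, read on the opposite strand as the capitals show and beginning 12 bases before the start, and no TGANTCA. The Gpr84 window held neither motif as written, although the shorter ETS-family core GGAA, which was not marked, occurs in both windows. Among 33469 annotated promoters of this length, 23.3% held GAGGAA and 6.34% held TGANTCA. These are matches of letters in 1 window, and no binding was measured.

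Tmem119 read 9.24, 9.29 and 8.60 in control rats 63, 68 and 69, and 10.22, 9.34 and 9.41 in ischemic rats 64, 65 and 66. The groups did not overlap, but ischemic rat 65 was only just above control rat 68, and ischemic rat 64 alone stood clear. The means of 9.05 ± 0.39 and 9.65 ± 0.49 (SD, n = 3 each) gave a log2 fold change of 0.61 (SE 0.28, 95% confidence interval −0.03 to 1.24) and an adjusted p of 0.112 by limma. The interval runs from no difference to more than a doubling of the signal. Without ischemic rat 64 the log2 fold change was 0.33, and without control rat 69 it was 0.39, and neither passed the test.

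Selplg, the neighbour of Tmem119 in the order of coding genes in RefSeq GRCr8, has no value here. The genes on either side of this pair were tested, and Coro1c, next to Selplg, had a log2 fold change of 0.55 (adjusted p = 0.00906, limma) while Iscu, next to Tmem119, had −0.22 (adjusted p = 0.499, limma). The selectins, the enzymes that build the carbohydrate and sulphate groups of the selectin ligand and the proteins that anchor it to the cytoskeleton formed a list of 17 genes. Of 11 tested, 1 rose, 0 fell by limma (5 higher and 1 lower at an unadjusted p under 0.05) and 10 did not pass, and the median log2 fold change was 0.17. Msn, the linker moesin that holds the ligand's tail, rose by 0.92 (adjusted p = 0.00109, limma). Its control values of 12.49, 12.47 and 12.45 lay within a narrow band, as did its ischemic values of 13.35, 13.34 and 13.48. Vsir, an inhibitory receptor described as a partner of this ligand, had a log2 fold change of 0.68 (adjusted p = 0.0112, limma).

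Aif1 had 2 probe sets. The brighter read 13.25, 14.12 and 14.15 in control rats 63, 68 and 69, and 13.84, 13.59 and 13.22 in ischemic rats 64, 65 and 66. The groups overlapped, since control rat 63 was nearly as low as ischemic rat 66, and the log2 fold change was −0.29 (SE 0.27, 95% confidence interval −0.91 to 0.33, adjusted p = 0.410 by limma). Without control rat 63 it was −0.59, with an adjusted p of 0.0562. The dimmer probe set read 8.59, 8.65 and 7.98 in control rats, and 7.72, 7.76 and 7.87 in ischemic rats, without overlap. Its log2 fold change was −0.63 (SE 0.19, 95% confidence interval −1.07 to −0.19) and its adjusted p was 0.0321 in a fit over 14083 probe sets, of which 21.1% passed the test in either direction. Both probe sets of Aif1 were thus lower after ischemia on average, and neither passed.

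Aif1 works with proteins that bundle, branch or cross-link actin and with the switches that direct them. Of 13 such genes, 11 were tested, and 4 rose, 0 fell by limma and 7 did not pass, against 16.8% risen over all genes tested. At an unadjusted p under 0.05, 7 were higher and 1 was lower. Their median log2 fold change was 0.46, against 0.10 over all genes tested. Actn1, which cross-links actin filaments, rose by 2.04 (adjusted p = 0.00689, limma). It read 8.53, 8.01 and 8.53 in control rats, and 9.29, 11.07 and 10.83 in ischemic rats, where rat 64 was well below the other two. Coro1a, a leukocyte actin-binding protein, rose by 0.84 (adjusted p = 0.00368, limma) and Actn4, a second cross-linker, rose by 0.73 (adjusted p = 0.00463, limma). Leaving out 1 rat kept all 3 higher in ischemic rats, but Actn1 and Actn4 then passed only without ischemic rat 64 and Coro1a only without rat 63, 64 or 66. Centring on ribosomal protein genes took Coro1a to 0.41 (adjusted p = 0.242) and Actn4 to 0.30 (adjusted p = 0.338). Rac1, the switch that drives membrane ruffles, had a log2 fold change of 0.46 and did not pass (adjusted p = 0.0899, limma). The fourth gene that rose, Arpc5, a subunit of the branching complex, had a log2 fold change of 0.57 (adjusted p = 0.00932, limma) and was named after its value had been seen. Aif1 itself, with values lower on average in ischemic rats, was not part of that count.

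Adgre1 read 13.15, 13.63 and 13.72 in control rats 63, 68 and 69, and 13.06, 13.21 and 12.74 in ischemic rats 64, 65 and 66. Ischemic rat 65 was just above control rat 63, so the groups overlapped, and ischemic rat 66 was the lowest. The log2 fold change was −0.50 (SE 0.19, 95% confidence interval −0.94 to −0.05) with an adjusted p of 0.0726 by limma. Without control rat 63 it was −0.67, with an adjusted p of 0.0234. Among 15 other adhesion receptors, 7 could be tested and limma called 0 in either direction, with 1 higher and 1 lower at an unadjusted p under 0.05. These were Adgrg6 with a log2 fold change of −0.81 (adjusted p = 0.0307, limma) and Adgrg1 with 0.94 (adjusted p = 0.0415, limma), both named after their values had been seen. Adgre5, the CD97 antigen of the same receptor subfamily, had a log2 fold change of −0.17 (95% confidence interval −0.55 to 0.22).

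Tmem119 and Adgre1 were also compared within each rat. Tmem119 minus Adgre1 was −3.90, −4.33 and −5.12 in control rats and −2.84, −3.87 and −3.34 in ischemic rats. The difference was 1.10 higher in ischemic rats, and ischemic rat 65 was only just above control rat 63. The exact permutation test, two-sided, gave p = 0.1, again the smallest value possible.

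Olfml3 read 5.80, 6.12 and 5.37 in control rats 63, 68 and 69, and 5.28, 5.37 and 5.23 in ischemic rats 64, 65 and 66. All 6 values were below the filter of 7.16 and below the 90th percentile of background genes, so the gene was not tested and no fold is given. Of 20 other olfactomedin-domain and bone morphogenetic protein (BMP) genes, 12 were tested, 0 rose by limma (2 higher at an unadjusted p under 0.05) and 2 fell, with a median log2 fold change of −0.09. Bmp2, a secreted ligand, fell by 2.29 (adjusted p = 0.00311, limma), from 10.73, 11.59 and 11.90 in control rats to 9.91, 8.65 and 8.79 in ischemic rats. Olfm1, a secreted olfactomedin-domain protein best known from neurons, fell by 1.05 (adjusted p = 0.00941, limma). Both calls were lost without rat 68, 65 or 66, that of Bmp2 also without rat 69 and that of Olfm1 without rat 63 (adjusted p up to 0.0157 and 0.0378). Id2, which is induced by BMP signals, had a log2 fold change of 0.06 (adjusted p = 0.805, limma).

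**Figure D2:**
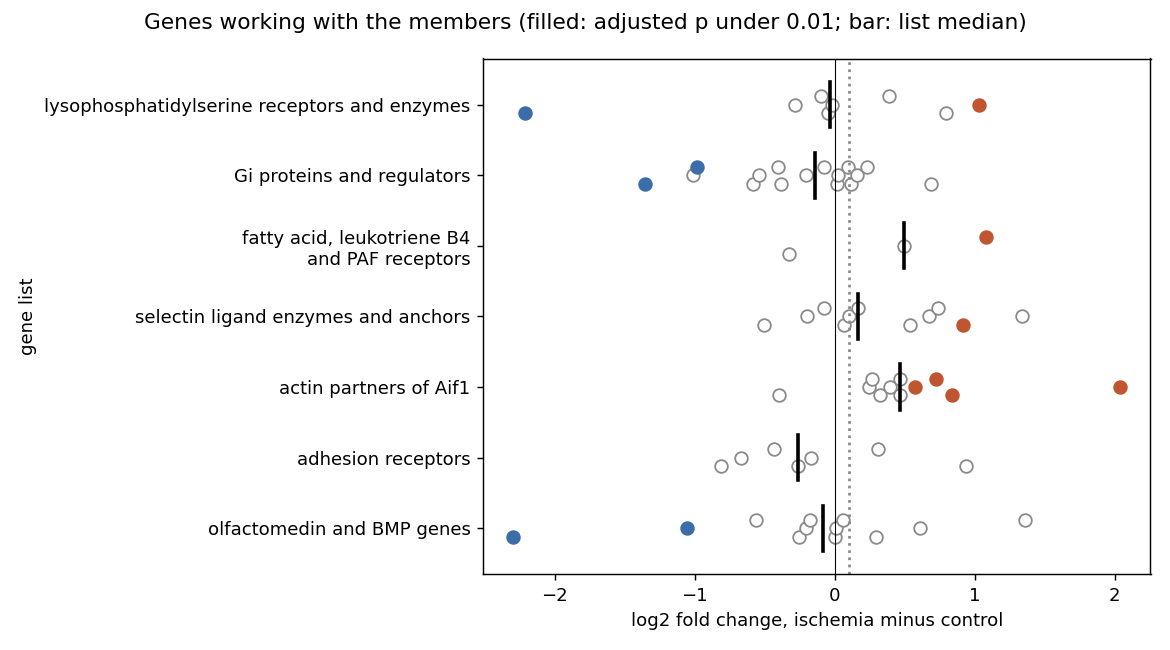
Log2 fold change, ischemia minus control (x axis), of every tested gene in 7 lists of genes that work with the microglia-associated genes (y axis). Each point is 1 gene, filled where the adjusted p was under 0.01, the black bar is the list's median and the dotted line is the median of all genes tested, 0.10; the actin list has 4 filled points on the right and none on the left, and the Gi list has 2 on the left and none on the right.

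The wider set of microglia genes gave a mixed picture. Of 40 other genes used as microglia markers, 29 could be tested, of which 1 rose, 3 fell and 25 did not pass, with a median log2 fold change of −0.12 and a range of −1.78 to 1.39. P2ry12, the purinergic receptor by which microglia sense nucleotides, fell by 1.78 (95% confidence interval −2.30 to −1.25, adjusted p = 0.00109, limma). It read 11.67, 12.23 and 11.92 in control rats 63, 68 and 69, and 10.62, 9.97 and 9.89 in ischemic rats 64, 65 and 66, without overlap. Hpgds, a prostaglandin D2 synthase, fell by 1.78 (adjusted p = 0.00309, limma), from 11.76, 12.56 and 12.21 to 11.04, 10.11 and 10.04. Il1a, which encodes the cytokine interleukin 1 alpha, rose by 1.39 (adjusted p = 0.000526, limma), with control rats at 12.03, 11.68 and 11.94 and ischemic rats at 13.18, 13.40 and 13.22. Ltc4s, a leukotriene C4 synthase that was named after its value had been seen, was at least 1.64-fold lower in ischemic rats, where its mean was within background (adjusted p = 0.00650, limma). Cst3, the protease inhibitor cystatin C, did not pass, with a log2 fold change of 0.21 (adjusted p = 0.579, limma). The groups did not overlap for 14 of the 29 genes, the 4 past the test included, against 55.6% of all genes tested. With 1 rat left out, P2ry12 and Il1a passed in all 6 fits and Hpgds in 2. The count of falls was 1 without rat 68, 69, 65 or 66 and 8 without ischemic rat 64.

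The genes held to separate microglia from border macrophages were measured for 5 of 8, and all 5 were above background in both groups. Besides P2ry12 they included Sall1, a transcription factor of microglia, which read 10.31, 9.45 and 9.38 in control rats and 9.91, 9.85 and 8.97 in ischemic rats. Its log2 fold change was −0.13 (95% confidence interval −0.87 to 0.60). Slc2a5, a fructose transporter, had a log2 fold change of 0.26, Sparc, a matrix-binding glycoprotein, had 0.06, and Crybb1, a crystallin, had 0.68, and none of the 3 passed the test (adjusted p = 0.364, 0.837 and 0.0648, limma). Summed over the 5 genes, the log2 signal was 13.09 to 13.44 in control rats and 12.74 to 13.10 in ischemic rats, so the 2 groups met at one edge. P2ry12 was the only 1 of the 5 called as fallen, and their median log2 fold change was 0.06.

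**Figure D3:**
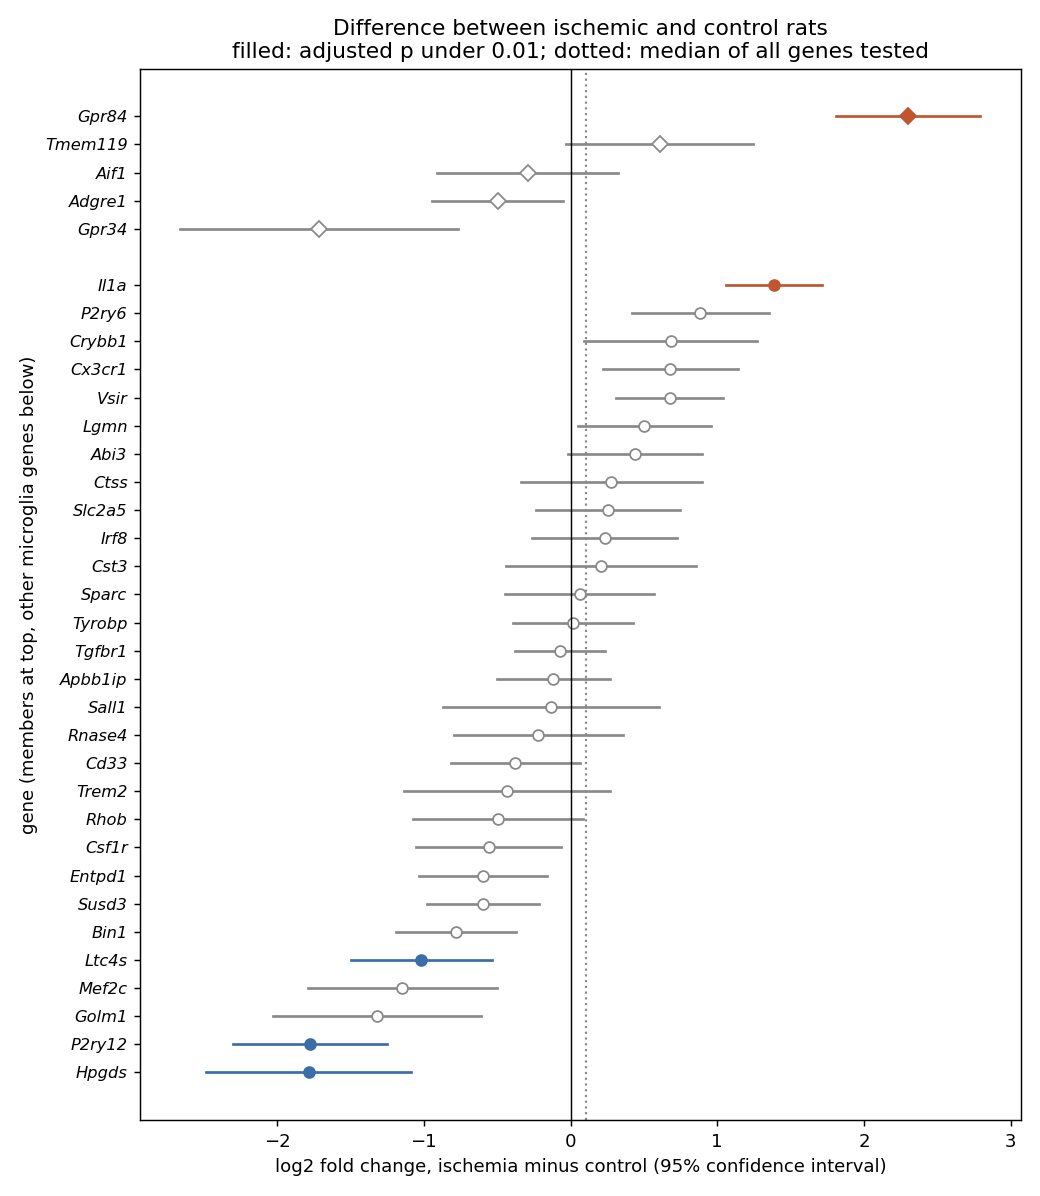
Log2 fold change, ischemia minus control, with its 95% confidence interval (x axis), for the 5 tested microglia-associated genes (diamonds, top) and 29 other microglia genes (circles, below). Filled symbols passed an adjusted p under 0.01 and the dotted line is the median of all genes tested, 0.10; Gpr84 lies furthest right at 2.30, and Hpgds, P2ry12 and Gpr34 lie furthest left at −1.78, −1.78 and −1.71.

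Each tested gene was set beside all 9927 others by the mean absolute difference of their log2 values over the 6 arrays, after each gene was centred on its own mean, so that a smaller value is a closer pattern. The closest to Gpr84 were Pacsin1, an adaptor of endocytosis, at 0.14, and Ggta1, a galactosyltransferase, at 0.21. Pacsin1 read 6.82, 6.48 and 6.16 in control rats and 9.05, 8.96 and 8.61 in ischemic rats, so its control values lay within background. The closest to Gpr34 were Tmem150c at 0.19 and Zmat1 at 0.20, and Tmem150c shared the low value of ischemic rat 66, with 8.67, 8.46 and 7.12 in ischemic rats 64, 65 and 66. The closest to Tmem119 were Icos at 0.14 and Ifitm3, an interferon-induced membrane protein, at 0.15. The closest to Aif1 were Nrip1, a nuclear receptor corepressor, at 0.05 and Zfp36l1, which destabilises messenger RNA, at 0.07. The closest to Adgre1 were Stard8 at 0.05 and Dap at 0.05, and Stard8 read 10.30 in control rat 63 against 10.88 and 10.79 in the other 2 control rats, the same low place that Adgre1 had.

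Genes listed as markers of other cell types moved between the groups as well, and Gpr84 is also carried by neutrophils and monocytes. Of 12 tested monocyte and recruited-macrophage genes, 9 rose and 1 fell, against 16.8% and 5.99% of all genes tested. Their median log2 fold change was 1.77. The summed log2 signal of that list was 14.69 to 14.93 in control rats and 15.65 to 16.42 in ischemic rats. Vcan, the proteoglycan versican, read 6.67, 6.83 and 6.78 in control rats, within background, and 12.74, 13.65 and 14.11 in ischemic rats, at least 74.0-fold higher (adjusted p = 4.22e-05, limma). Fn1, fibronectin, rose by 5.96 (adjusted p = 0.000316, limma) and Ly6c, a monocyte surface antigen whose control mean was within background, was at least 22.0-fold higher (adjusted p = 0.000969, limma), while Ccr2, a chemokine receptor of monocytes, had a log2 fold change of 0.43 (adjusted p = 0.311, limma). Itgam, which encodes the gated antigen CD11b and was named after its value had been seen, rose by 2.24 (adjusted p = 0.000104, limma). Itgam is counted in this list although every sorted cell was gated on it. Cd44, also listed, was detected by the paper in control CD163+ cells. The count and the summed signal of this list thus include genes carried by the gated macrophages.

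Granulocyte genes were measured for 12 of 20, of which 9 were within background in control rats and 4 in ischemic rats. Of 8 tested, 4 rose and 0 fell by limma (7 higher and 0 lower at an unadjusted p under 0.05), against 16.8% risen over all genes tested. S100a8, a calcium-binding protein of neutrophils, read 5.89, 5.25 and 4.80 in control rats and 8.24, 8.34 and 9.44 in ischemic rats. The control values of S100a8, Lcn2 and Mmp9 were all within background, and their ischemic means were at least 2.61-fold, 2.36-fold and 3.07-fold higher (adjusted p = 0.000621, 0.000713 and 0.00474, limma). These genes exceeded the filter of 7.16 on ischemic arrays only, as did Vcan, so they were tested through the group where they were high. A rise was the only direction open to them, and the count of rises was partly fixed by the filter. The call of Mmp9 was lost without rat 63, 68, 69 or 66 (adjusted p up to 0.0231). Il1r2, a decoy receptor of interleukin 1, had a log2 fold change of 1.65 and did not pass (adjusted p = 0.0171, limma), although it passed without control rat 63 (2.15, adjusted p = 0.00506). The summed log2 signal was 10.95 to 11.91 in control rats and 12.78 to 13.57 in ischemic rats. Mpo, Elane, Ngp and Ltf, which mark neutrophil granules, were not named in the annotation used here. The part of these cell types in the rise of Gpr84 was not tested.

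Border-macrophage genes were tested for 19 of 21 genes, of which 0 rose by limma (0 higher at an unadjusted p under 0.05) and 3 fell (Igfbp4, Colec12 and Hpgd), with a median log2 fold change of −0.76. Their summed log2 signal was 16.89 in control rat 63, 17.86 and 17.75 in control rats 68 and 69, and 17.38, 17.08 and 16.72 in ischemic rats 64, 65 and 66. Control rat 63 was thus low on this list, as it was for Aif1 and Adgre1, and ischemic rat 66 was the lowest of all. The highest value on the array of rat 63, 13.85, was below that of every other array. Its ribosomal protein genes were 0.79 lower than over the other 5 arrays. The low reading of rat 63 was therefore not confined to border-macrophage genes, but other lists did not share it. Rat 63 had the highest summed log2 signal of the 6 arrays for oligodendrocyte (14.48), astrocyte (12.68) and endothelial genes (13.12). For granulocyte genes its sum of 11.91 was the highest among control rats. On the monocyte and neuron lists it lay between the other 2 control rats. The cause of these differences was not tested. Hpgd, a prostaglandin-degrading enzyme, was within background in ischemic rats, and its call was lost without rat 68, 69, 64, 65 or 66 (adjusted p up to 0.0310), while Igfbp4 and Colec12 passed with any 1 rat left out. Hpgd exceeded the filter of 7.16 on control arrays only, so a fall was the only direction open to it. Colec12, a scavenger receptor, fell by 1.95 (adjusted p = 0.00143, limma), and Mrc1, the mannose receptor, had a log2 fold change of −0.18 (adjusted p = 0.672, limma). Oligodendrocyte genes, tested for 8 of 12, fell for 3 and rose for 0 by limma (7 lower and 0 higher at an unadjusted p under 0.05). Their summed log2 signal was 13.32 to 14.48 in control rats and 12.09 to 12.84 in ischemic rats. Mbp, myelin basic protein, fell by 1.83 (adjusted p = 0.00113, limma) and Mobp, another myelin protein, fell by 1.93 (adjusted p = 0.00432, limma), the second lost without rat 63, 68 or 65. Ermn, a cytoskeletal protein of oligodendrocytes, was at least 3.54-fold lower in ischemic rats, where its mean was within background (adjusted p = 0.00855, limma), and passed in only 1 of 6 fits with a rat left out. Cldn11, a tight-junction protein of myelin, had a log2 fold change of −1.82 and did not pass (adjusted p = 0.0294, limma), although it passed without ischemic rat 66 (−2.39, adjusted p = 0.00672). Of 4 tested neuronal genes 1 fell, the glutamate receptor subunit Gria2, whose ischemic mean was within background and at least 7.04-fold lower (adjusted p = 0.00173, limma), while Tubb3, a neuronal tubulin, had a log2 fold change of −0.34 (adjusted p = 0.109, limma). Of 7 tested astrocyte genes 1 rose, Gfap with 2.07 (adjusted p = 0.00563, limma), a call lost without rat 68, 69, 65 or 66 (adjusted p up to 0.0248), and the glutamate transporter Slc1a3 had 0.13 (adjusted p = 0.786, limma). Limma called 0 of 6 tested endothelial genes (0 higher and 1 lower at an unadjusted p under 0.05), and Esam had a log2 fold change of −0.36 with an adjusted p of 0.157 by limma. The part of these cell types in the lower Gpr34 and P2ry12 signal was not tested.

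**Figure D4:**
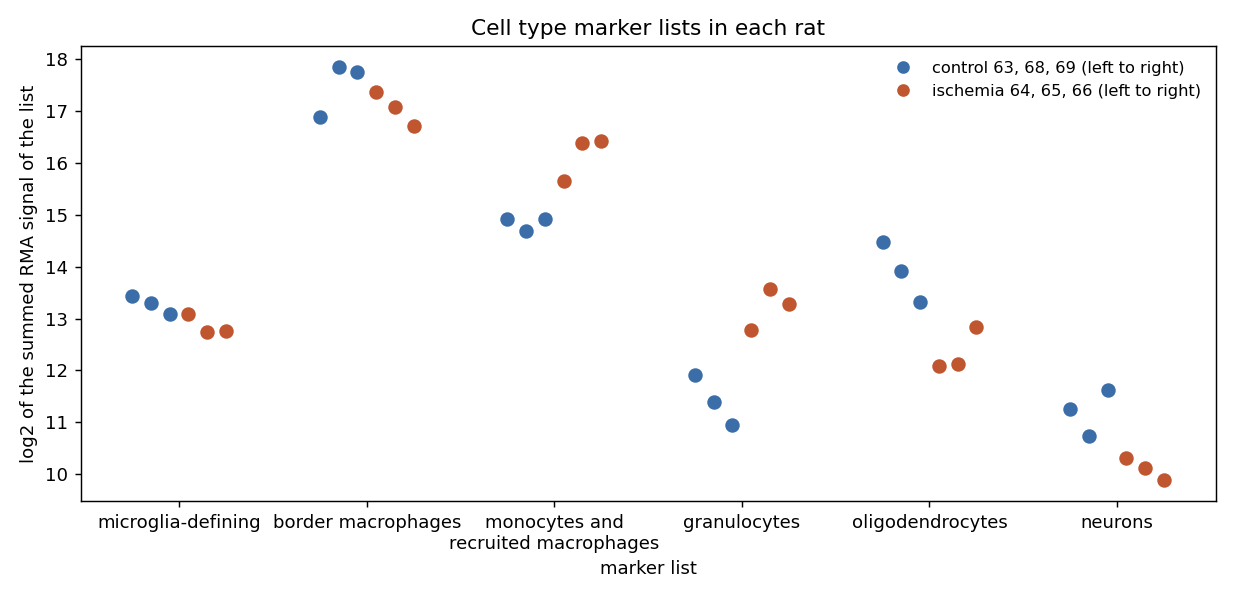
Log2 of the summed RMA signal (y axis) of 6 marker lists (x axis) in each rat, with control rats 63, 68 and 69 and ischemic rats 64, 65 and 66 from left to right in each list and 1 point per array. Monocyte and granulocyte lists are higher in every ischemic rat, and oligodendrocyte and neuron lists are lower in every ischemic rat. Of the 10 neuronal genes summed, 6 were within background in control rats and 7 in ischemic rats, and only Gria2 of 4 tested fell. Control rat 63 lies at 16.89 on the border-macrophage list, below the other 2 control rats.

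Across 19 alternative settings Gpr84 stayed past the test in 18, with log2 fold changes between 1.88 and 2.48. Gpr34 was lower in ischemic rats in all 19 and past the test in 8, with log2 fold changes between −2.14 and −1.17. Adgre1 passed in 2 of 19, and Aif1 and Tmem119 in none. Relative to the median of all genes tested, Gpr84 was 2.20 higher and Gpr34 differed by −1.82. Without control rat 63, the array that stood apart, Gpr84 had a log2 fold change of 2.46 (adjusted p = 0.00181, limma), Gpr34 −1.78 (adjusted p = 0.0359) and Tmem119 0.71 (adjusted p = 0.133), so no call of these 3 genes turned on that rat.

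**Figure D5:**
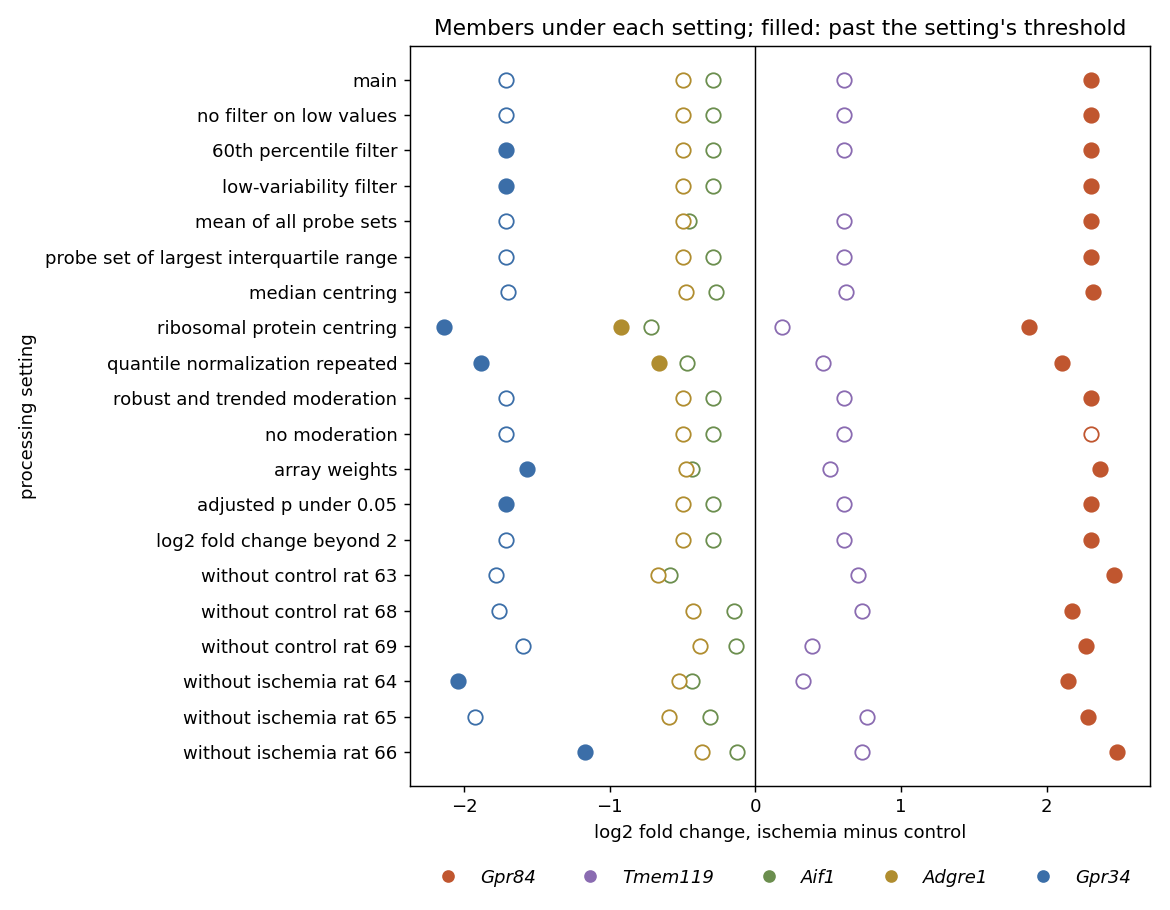
Log2 fold change, ischemia minus control (x axis), of the 5 tested microglia-associated genes under the main setting and 19 alternatives (y axis). Each point is 1 gene under 1 setting and is filled where it passed that setting's threshold; Gpr84 (right) is filled in all but the setting without moderation of the variances, Gpr34 (left) is filled in 8 alternatives, and no gene crosses 0.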

How the data were processed

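RNA from 6 sorted samples, 1 per rat, was amplified with the 3′ IVT Pico kit and hybridised to Rat Genome 230 2.0 arrays. RNA integrity numbers were over 9.2 per the labels. The authors background-corrected, normalized and summarised the arrays by RMA and deposited log2 values for 31099 probe sets; the submitters' processing notes name limma 3.18 and R 3.3.1. Annotation named 1 gene for 20826 probe sets, several for 436 and none for 9780, with 57 controls.

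The values were used as deposited. The probe set brightest on average stood for its gene, and genes above the 40th percentile of all values (7.16) on at least 3 arrays were tested (9928 genes). Groups were compared with limma 3.58.1 in R 4.3.3 (lmFit, eBayes), adjusted by Benjamini-Hochberg over all genes tested, at 0.01. The script was tested on simulated data. Pairs of genes used a two-sided exact permutation test. RMA compresses differences near background and near saturation, and the number of arrays limits the precision.

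Genes named were every listed microglia-associated gene, and per list up to 3 past the test with the largest change and the brightest not past it, plus Cd163 and the genes that define microglia; exceptions are stated. The genes and lists were chosen with earlier results of these data known. Labels gave no batch. Alternatives changed filters, probe-set choice, centring, normalization, variance model, threshold and rats.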

Additional observations from a re-analysis of the deposited data

How the results depend on the processing

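No paired analysis was possible because the labels number the rats of the 2 groups differently. The directions of all 5 tested microglia-associated genes held under every alternative run. In the main setting 1664 genes rose and 595 fell, and 73.7% of calls were rises. Centring on 42 ribosomal protein genes gave 399 and 1329 (23.1% rises) and moved the median of all genes from 0.10 to −0.32; the mean of these genes was 0.79 lower on control rat 63 than over the other 5 arrays. Repeating quantile normalization gave 1090 falls (53.1% rises), array weights gave 1309 falls (64.5% rises), an adjusted p under 0.05 gave 2722 and 1377, and a log2 fold change beyond 2 gave 162 and 58. Without moderation of the variances limma called 0 genes in either direction, Gpr84 (adjusted p = 0.0173) and all other microglia genes included, with 4478 genes at an unadjusted p under 0.05. Leaving out 1 rat gave 681 to 1564 rises and 166 to 816 falls (lowest without ischemic rat 65, highest without ischemic rat 64; over 1.5 times fewer rises also without rats 63, 69 and 66, and fewer falls without rats 63, 68, 69 and 66), 0 to 1 falls among the 5 genes and 1 to 8 falls among the other microglia genes.

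Gpr34 passed, as the only fall among the 5, under the 60th percentile filter (adjusted p = 0.00743), the low-variability filter (0.00929), array weights (0.00988) and the threshold of 0.05, and without ischemic rat 64 or 66. Centring on ribosomal protein genes (Gpr34 −2.14, adjusted p = 0.000501; Adgre1 −0.92, adjusted p = 0.00583) and repeated quantile normalization (Gpr34 −1.88, adjusted p = 0.00988; Adgre1 −0.66, adjusted p = 0.00872) each gave 2 falls. Under ribosomal centring the rises of Msn, Ptdss1, Ltb4r and Il1a also lost their calls (adjusted p = 0.125, 0.0775, 0.0452 and 0.0118). Tmem119 was dropped by the low-variability filter.

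Among other microglia genes, against 1 rise and 3 falls, the 60th percentile filter gave 3 and 5, the low-variability filter 2 and 5, the mean of all probe sets 3 and 6, the probe set of largest interquartile range 5 falls, median centring 3 rises, ribosomal centring 0 and 10, repeated quantile normalization 6 falls, robust and trended moderation 2 rises, array weights 3 and 8, the threshold of 0.05 4 and 8, and a log2 fold change beyond 2 gave 0 and 0. The causes of these shifts were not tested. With 3 rats per group, differences smaller than the intervals given could not be resolved.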
